A study of Saccharomyces cerevisiae with 14 samples.

Results

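The RNA bound by Hel2 in yeast that lacks New1 was compared with the RNA bound by Hel2 in wildtype yeast, both grown at 30 °C. The comparison used 4 of the 14 libraries of the series, 2 from Hel2-HTP *new1Δ* cells and 2 from Hel2-HTP wildtype cells, chosen by their labels and paired by replicate number. The *new1Δ* strain was BY4741 carrying Hel2-HTP::URA3 and a KanMX6 cassette in place of *NEW1*, and the wildtype strain was BY4741 carrying Hel2-HTP::URA3 alone. HTP is a tag of a histidine stretch, a TEV protease site and protein A, and both strains expressed the tagged Hel2 from its own chromosomal locus. Untagged BY4741, which has intact *NEW1* and no tag, gave 2 background libraries. All cultures were grown in SD medium without tryptophan at 30 °C to an OD600 of about 0.5 and crosslinked with UV light. Samples grown at 20 °C served as a side comparison. The labels give them the same medium, while the study's methods give one that also lacked uracil, along with changes in the purification and library steps.

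Hel2 is an E3 ubiquitin ligase that recognises collided ribosomes and ubiquitinates proteins of the small subunit, which starts no-go decay of the mRNA and quality control of the nascent chain. New1 is an ATPase of the ABCF family, related to the fungal elongation factor eEF3, and acts in translation termination. In cells without New1, ribosomes are known to pause at the stop codon of mRNAs whose coding sequence ends in particular lysine or arginine codons. CRAC isolates RNA fragments crosslinked to a tagged protein, so a read marks RNA that was in contact with Hel2. No RNA-seq was set against these libraries here, so a higher read count from more mRNA and one from more Hel2 per mRNA cannot be told apart.

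The ends of the coding sequences carry the feature by which the study grouped the mRNAs. The study drew these groups from Hel2 reads in the untranslated region after the stop codon. The counts below are sense reads per gene, which is another measure. The last sense codon AAA (lysine), AGG (arginine) or CGU (arginine) makes an mRNA strongly affected, codons for cysteine, asparagine or serine and the arginine codons CGA, CGC and CGG make it mildly affected, and all others form the not affected group. The last 30 bases of coding sequence and stop codon are shown for genes to which the results below refer, with the last sense codon in capitals and written in DNA letters, so that CGU appears as CGT. They were read from the R64 reference sequence.
RPS21A: ttaaagaacgtctggtcttactcaCGTtaa
RPS28A: tctgaacgtgaagctcgtcgtttgCGTtag
RPS16B: cgttctagattccaaaaatcttacCGTtaa
RPL34B: aagaagtctgaaaagaagtctaagAAAtaa
RPL40B: caattgcgtccaaagaagaagttgAAAtaa
RPL29: gctaaggctttggctgctgccaagAAAtaa
NPC2: accggagaagtcatcttcccaccaAGGtga
GPM1: gctgctgttgccaaccaaggtaagAAAtaa
TSA1: aaggaatacttcgaagctgccaacAAAtaa
HSP12: cacggtgaagaagacccaaccaagAAGtaa
RTC3: ggtaacgccggaaccaaagcctacAATtga
LYS21: gtttctaaaaaggcaaaggtcaccAAAtag
LYS20: gccgccaagcggactaagccatccGCCtaa
ADH1: ggtagatacgttgttgacacttctAAAtaa
ADH2: ggtagatacgttgttgacacttctAAAtaa

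The *new1Δ* libraries held 2713842 and 936839 mapped reads (replicates 1 and 2) and the wildtype libraries 2217839 and 944993, of which 366525 to 973898 per library lay on mRNAs. The replicates differed in kind. Replicate 1 held 11.1 reads per cDNA in *new1Δ*, against 9.64 in wildtype, and replicate 2 held 2.99 and 3.10, where a cDNA is a set of reads that collapse to the same fragment. Fewer protein-coding genes had any read in replicate 1 (3305 in *new1Δ*, against 3097 in wildtype) than in replicate 2 (4916 and 5010). Across 5840 genes the Spearman correlation between replicates was 0.595 in *new1Δ*, against 0.585 in wildtype. Between the *new1Δ* and wildtype libraries of the same replicate it was 0.493 in replicate 1 and 0.748 in replicate 2. In replicate 2 the 2 strains were thus closer to each other than either was to its own replicate 1. The untagged libraries held 1160029 and 67981 mapped reads. Each replicate was sequenced in a run of its own, so culture and run cannot be told apart.

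The deleted gene was read first. *NEW1* (YPL226W, chromosome XVI, 121767 to 125357, plus strand) had 0 and 7 reads in the *new1Δ* libraries, against 220 and 105 in the wildtype libraries. Its counts did not overlap between the strains, and its estimated log2 fold change of -6.05 did not pass the test (SE 2.10, edgeR adjusted p = 0.400). *HEL2*, the tagged gene, had 154 and 120 reads in *new1Δ*, against 217 and 129 in wildtype. Of the genes deleted in BY4741, *LEU2* had 0 reads in all 4 libraries, while *HIS3* had 100 and 20 in *new1Δ*, against 19 and 53 in wildtype. Genes expressed by mating type a, that of BY4741, summed to 1330 and 305 reads in *new1Δ*, against 491 and 373 in wildtype, and genes of mating type α to 115 and 4 in *new1Δ*, against 1 and 12 in wildtype.

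Of 4833 protein-coding genes tested, 22 were called at an edgeR adjusted p under 0.05, which is 0.455%, and all 22 were higher in *new1Δ*. When the genes were fitted together with noncoding features, 7 genes were called, all higher. In each of the 22 both *new1Δ* libraries lay above both wildtype libraries as scaled reads, which held for 17.0% of all genes tested. By last sense codon, 14 of the 22 ended in AAA, 5 in CGU and 1 in AGG, and the exceptions were *HSP12* (AAG) and *RTC3* (AAU). The call rate was 3.32% in the strongly affected group (20 of 602 tested), 0.133% in the mildly affected group (1 of 754) and 0.0288% in the not affected group (1 of 3477). No gene was called lower, while 13 genes were lower at an unadjusted p under 0.05. Under other settings DESeq2 called 4 genes lower, and edgeR called *TDH3* lower with DESeq2's size factors and with no filter on low counts, and *NAT1*, *SEC26* and *SSD1* lower without replicate 2. Of the 93 genes that were higher at an unadjusted p under 0.05, 75 were strongly affected, 6 mildly and 12 not, and none of the 13 lower genes was strongly affected. The study drew the codon groups in part from these samples, so the groups are not independent evidence of the direction. The count depends on the model: edgeR called 6 genes with no replicate block, 0 from the 4 libraries alone (152 at an unadjusted p under 0.05), 7 without replicate 1 and 20 without replicate 2, and DESeq2 called 60.

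**Figure D1:**
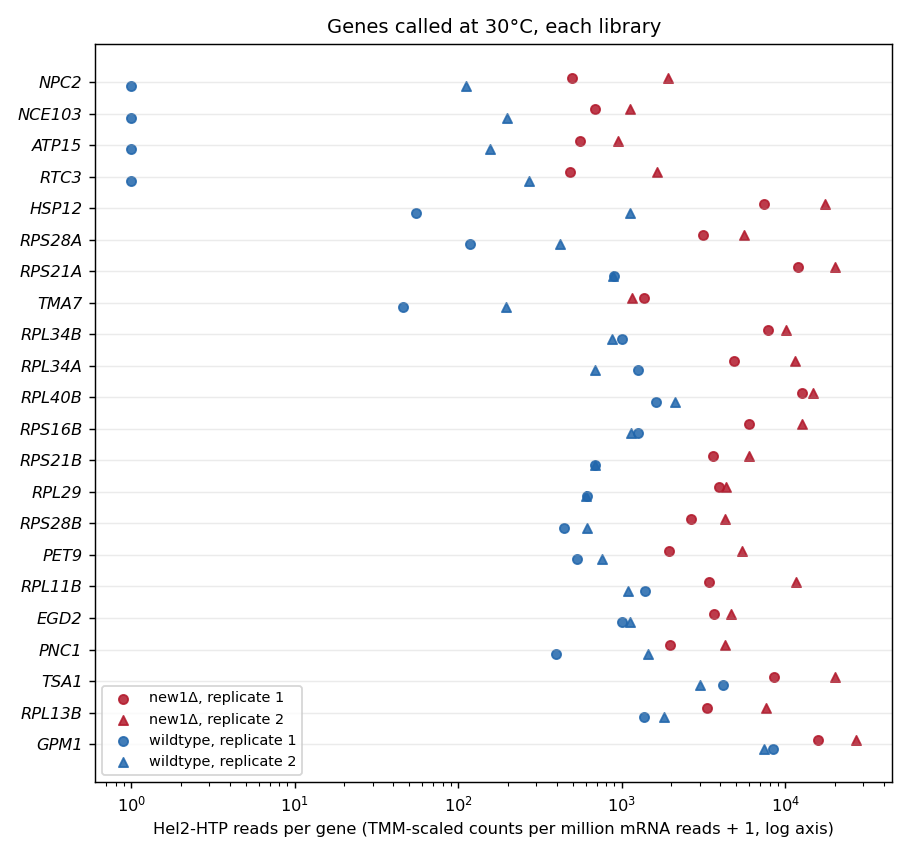
CPM plus 1 (mRNA reads scaled to a common library size with TMM factors, log axis) for the 22 called genes in each *new1Δ* and wildtype library, with 1 point per library. For each of the 22 genes both *new1Δ* points lie above both wildtype points.

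Ribosomal proteins made up 11 of the 22 called genes, and 138 of the 4833 tested. All 11 are among the 25 tested ribosomal protein genes that are strongly affected. *RPS21A* (YKR057W, chromosome XI, 551657 to 552242, plus strand), a protein of the small subunit whose coding sequence ends in CGU, had 11275 and 5808 reads in *new1Δ*, against 835 and 301 in wildtype. Both *new1Δ* libraries were far above both wildtype libraries, by an estimated 17.4-fold (log2 fold change 4.12, SE 0.35, edgeR adjusted p = 1.2e-24). *RPS28A* (YOR167C, chromosome XV, 648804 to 649007, minus strand), also of the small subunit and ending in CGU, had 2987 and 1625 reads in *new1Δ*, against 108 and 143 in wildtype. This was 19.1-fold higher (log2 fold change 4.26, SE 0.56, adjusted p = 1.81e-10). As CPM, the reads scaled to a common library size with TMM factors, *RPS28A* averaged 4377 ± 1733 in *new1Δ*, against 265.8 ± 212 CPM in wildtype (SD, n = 2 each). *RPS16B* (YDL083C, chromosome IV, 306926 to 307789, minus strand) carried 5680 and 3639 reads in *new1Δ*, against 1162 and 393 in wildtype, with a log2 fold change of 2.86 (SE 0.41). The remaining called small-subunit genes, *RPS21B* and *RPS28B*, had log2 fold changes of 2.77 and 2.69, so that all 5 called small-subunit genes end in CGU.

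The called large-subunit genes all end in AAA. *RPL34B* (YIL052C, chromosome IX, 256226 to 257063, minus strand) had 7375 and 2925 reads in *new1Δ*, against 934 and 297 in wildtype, a 9.51-fold difference (log2 fold change 3.25, SE 0.45, adjusted p = 1.01e-09). Its copy *RPL34A* had 4594 and 3310 reads in *new1Δ*, against 1160 and 236 in wildtype (log2 fold change 3.01). *RPL40B* (YKR094C, chromosome XI, 617996 to 618750, minus strand), which encodes ubiquitin fused to a ribosomal protein, had 11965 and 4305 reads in *new1Δ*, against 1501 and 722 in wildtype, which was 7.44-fold higher (adjusted p = 2.85e-11). *RPL29* (YFR032C-A, chromosome VI, 223258 to 223437, minus strand), the called gene with the shortest coding sequence at 180 nt, had 3711 and 1251 reads in *new1Δ*, against 571 and 206 in wildtype. The 2 weakest were *RPL11B*, with a log2 fold change of 2.35, and *RPL13B*, with 1.68.

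Most called ribosomal protein genes have a near-identical copy, and reads can be split between copies by the counting, so the sums over copies were set side by side. *RPS21A* and *RPS21B* together held 14676 and 7549 reads in *new1Δ*, against 1472 and 535 in wildtype. The *RPL34* copies summed to 11969 and 6235 in *new1Δ*, against 2094 and 533 in wildtype, and the *RPS28* copies to 5497 and 2864 in *new1Δ*, against 519 and 354 in wildtype. For *RPS16* the sums were 8039 and 5751 in *new1Δ*, against 2321 and 856 in wildtype, for *RPL13* 6137 and 3962 against 2924 and 982, for *RPL11* 3643 and 3950 against 1769 and 638, and for *RPL40* 13621 and 5397 against 2865 and 1216. Every one of these 7 sums was higher in each *new1Δ* library than in the wildtype library of the same replicate. Each pair was chosen because it holds a called gene, whose reads enter the sum, so nothing is read from this about the other copy. *RPS28A* and *RPS28B* were summed too, although they were not marked as near-identical copies.

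Ribosomal protein genes did not move as one body. Over the 138 tested the median log2 fold change was -0.28, against 0.13 over all genes tested. The 25 that are strongly affected had a median of 1.68, with 20 positive in both replicate pairs and 3 negative in both. All 84 strongly affected genes with at least 1000 reads over the 4 libraries had a median near that, 1.64. Of these 84, 68 were positive in both pairs and 4 negative in both, and *new1Δ* reads count toward the minimum. The other 113 ribosomal protein genes had a median of -0.36, with 9 positive in both pairs and 78 negative in both. Of these 113, 0 were called by edgeR or DESeq2 (1 higher and 4 lower at an unadjusted p under 0.05). As a share of mRNA reads, the 25 took 9.29% and 12.1% in *new1Δ*, against 3.41% and 3.03% in wildtype, and the 113 took 13.01% and 10.8% in *new1Δ*, against 18.3% and 17.0% in wildtype. All ribosomal protein genes together took 22.3% and 22.9% in *new1Δ*, against 21.7% and 19.99% in wildtype. A share is relative, so a gain of some mRNAs lowers the share of the rest.

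Some strongly affected ribosomal protein genes did not pass the test, and those given here were chosen after their values were seen. *RPL41A*, which encodes the smallest ribosomal protein, had 1443 and 631 reads in *new1Δ*, against 1785 and 752 in wildtype (log2 fold change -0.17). Its copy *RPL41B* had 523 and 268 in *new1Δ*, against 963 and 404 in wildtype (log2 fold change -0.63). *RPS8A* had 712 and 268 reads in *new1Δ*, against 876 and 375 in wildtype (log2 fold change -0.28), and its copy *RPS8B* had 1343 and 434 in *new1Δ*, against 717 and 583 in wildtype. The *RPS8B* counts overlapped between the strains once scaled to depth. *RPL11A*, *RPL40A* and *RPL15A* had log2 fold changes of 0.60, 0.82 and 0.84 and were not called.

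The other 11 called genes lie outside the cytosolic ribosome. The highest estimates belonged to the 4 genes with 0 reads in wildtype replicate 1, and they depend on that 0: without replicate 1 none of the 4 was called, and the log2 fold changes were 4.03 for *NPC2*, 2.43 for *NCE103*, 2.55 for *ATP15* and 2.54 for *RTC3*. *NPC2* (YDL046W, chromosome IV, 371240 to 371761, plus strand), a sterol-binding protein and the called gene that ends in AGG, had 467 and 551 reads in *new1Δ*, against 0 and 38 in wildtype (log2 fold change 6.43, SE 1.19, adjusted p = 5.26e-05). *NCE103* (YNL036W, chromosome XIV, 559814 to 560479, plus strand), the carbonic anhydrase, had 651 and 325 in *new1Δ*, against 0 and 68 in wildtype. *ATP15* (YPL271W, chromosome XVI, 30079 to 30267, plus strand), a subunit of the F1 part of the mitochondrial ATP synthase, had 526 and 275 in *new1Δ*, against 0 and 53 in wildtype. The untagged libraries had 115 and 0 reads for *NPC2* and none for *NCE103* or *ATP15*.

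*TMA7* (YLR262C-A), a protein associated with the translation machinery, had 1286 and 333 reads in *new1Δ*, against 42 and 67 in wildtype (log2 fold change 3.73, SE 0.88, adjusted p = 0.00644). *PET9* (YBL030C), the main ADP/ATP carrier of mitochondria, had 1831 and 1580 in *new1Δ*, against 491 and 261 in wildtype, and *EGD2* (YHR193C), a subunit of the nascent polypeptide-associated complex at the ribosome exit tunnel, had 3477 and 1356 in *new1Δ*, against 937 and 387 in wildtype. Their log2 fold changes were 2.36 and 1.96 (adjusted p = 0.00205 and 0.0383). *PNC1* (YGL037C), the nicotinamidase, was the called gene closest to the threshold, with 1854 and 1232 reads in *new1Δ*, 365 and 493 in wildtype and an adjusted p of 0.0471.

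The smallest called change was that of an abundant mRNA. *GPM1* (YKL152C, chromosome XI, 163642 to 164385, minus strand), phosphoglycerate mutase of glycolysis, had 14907 and 7861 reads in *new1Δ*, against 7848 and 2558 in wildtype, a 2.61-fold difference (log2 fold change 1.38, SE 0.28, adjusted p = 0.000469). *TSA1* (YML028W, chromosome XIII, 220138 to 220728, plus strand), a peroxiredoxin, had 8087 and 5846 in *new1Δ*, against 3886 and 1038 in wildtype (log2 fold change 1.89, SE 0.38). In both genes replicate 2 gave the wider gap, with log2 ratios of 1.80 for *GPM1* and 2.67 for *TSA1* against 0.68 and 0.82 in replicate 1.

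*HSP12* and *RTC3* were called although their last codons are outside the strongly affected set. *HSP12* (YFL014W, chromosome VI, 107256 to 107585, plus strand), a small heat shock protein induced by many stresses, had 6989 and 5039 reads in *new1Δ*, against 50 and 383 in wildtype. It had the lowest adjusted p of all genes (45.7-fold higher, log2 fold change 5.51, SE 0.46, adjusted p = 1.91e-25), and its cDNAs numbered 528 and 1507 in *new1Δ*, against 4 and 123 in wildtype. The size of the change differed between the replicates, with a log2 fold change of 3.89 without replicate 1 and 7.09 without replicate 2, and with no replicate block it was 4.41 and not called (adjusted p = 0.131). It ends in AAG, the other lysine codon, and the 130 tested genes that end in AAG had a median log2 fold change of 0.25 with *HSP12* the single one called. *RTC3* (YHR087W, chromosome VIII, 280820 to 281155, plus strand) had 456 and 473 reads in *new1Δ*, against 0 and 92 in wildtype (log2 fold change 5.57, SE 1.28, adjusted p = 0.0048). Among the other 17 tested genes of the list of chaperonins and heat shock proteins none was called, and the list median was 0.06.

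The number of cDNAs, which counts collapsed fragments, gave a second measure. All 22 genes were also called by cDNAs, where 38 of 2850 genes tested were called (1.33%), all of them higher in *new1Δ*. Of these 38, 24 end in AAA, 7 in CGU and 2 in AGG. The 16 genes called by cDNAs alone include *RPS15*, *RPL13A*, *RPL24A* and *RPS16A*, which lay just past the threshold by reads (adjusted p = 0.0511, 0.0603, 0.063 and 0.0864). *SED1*, a cell wall protein that ends in UUA, *MTC7* (CAA) and *SSA1*, a cytosolic Hsp70 that ends in GAU, were called by cDNAs without a strongly affected codon. *LNP1* and *MNL2* had more cDNAs than sense reads, and the cDNA column includes antisense fragments, so their calls were not read as sense binding.

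The strongly affected mRNAs as a group took 30.7% and 35.9% of mRNA reads in *new1Δ*, against 16.8% and 16.2% in wildtype, with 11.8% and 11.95% in the untagged libraries. The shares did not overlap between the strains (exact permutation test, two-sided, p = 0.333, the smallest that 2 against 2 allows). The 22 called genes alone took 10.3% and 14.3% in *new1Δ*, against 2.77% and 2.51% in wildtype. Without the called genes the strongly affected group still took 21.1% and 22.9% in *new1Δ*, against 14.0% and 13.8% in wildtype. The mildly affected group took 11.8% and 11.1% in *new1Δ*, against 11.3% and 11.96% in wildtype, and the not affected group 57.5% and 53.1% in *new1Δ*, against 71.9% and 71.8% in wildtype.

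**Figure D2:**
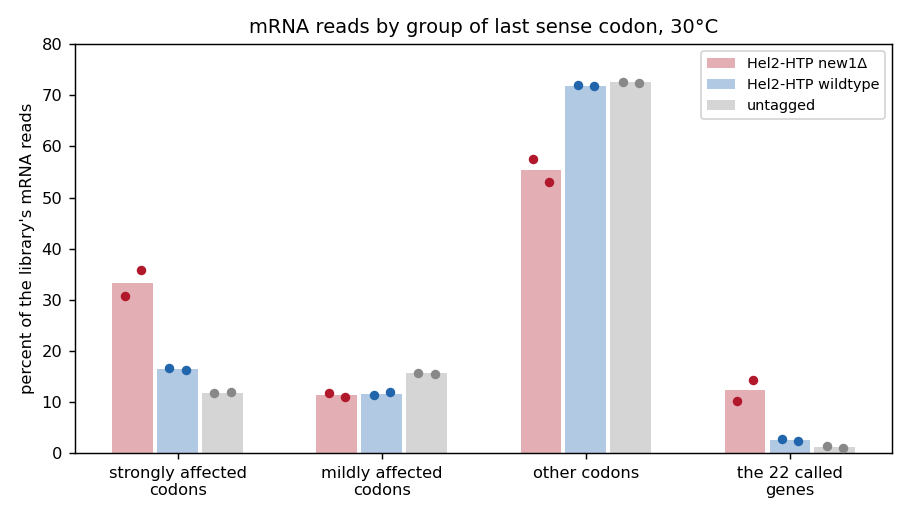
Share of mRNA reads (percent) taken by each last-codon group and by the 22 called genes in each *new1Δ*, wildtype and untagged library at 30 °C, with 1 point per library and bars at the mean of 2 (other codons are the not affected group). The strongly affected group lies at 30.7% and 35.9% in *new1Δ*, against 16.8% and 16.2% in wildtype.

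Gene by gene, log2 ratios of reads plus 1 were formed within each pair and centred on the median of all genes with a read in the pair. The median ratio of the strongly affected group, averaged over both replicate pairs, was 0.90 (0.76 in pair 1 and 0.83 in pair 2), against 0.15 in the mildly and -0.19 in the not affected group and 0.01 over all genes. The spread was wide, with quartiles of -0.31 and 2.64 in the strongly affected group. Of the genes with a ratio in both pairs, it was positive in both for 278 of 533 strongly affected genes (52.2%), 176 of 624 mildly affected (28.2%) and 644 of 2912 not affected genes (22.1%). Among genes with at least 1000 reads over the 4 libraries, 68 of 84 strongly affected genes were higher in both pairs (81.0%) and 4 were lower in both, while 42 of 291 not affected genes were higher in both (14.4%) and 167 lower in both. With at least 5000 reads, 25 of 27 strongly affected genes were higher in both pairs. The reads of the *new1Δ* libraries count toward these minimums, so a gene that gained reads there passed more easily, and nothing is read from the shares across the minimums.

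**Figure D3:**
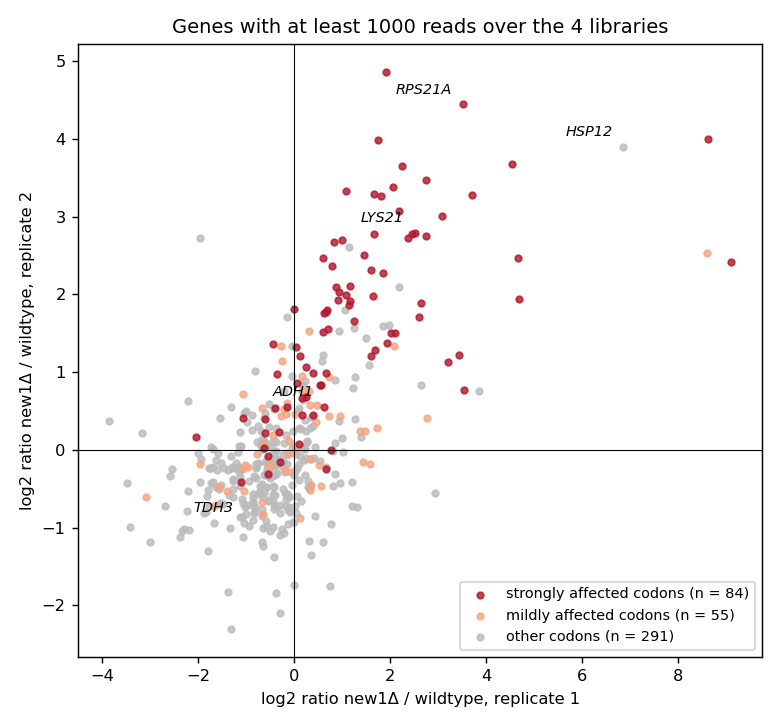
Log2 ratio of *new1Δ* to wildtype reads plus 1, centred on the median of each pair, for genes with at least 1000 reads over the 4 libraries, with replicate 1 on the x axis, replicate 2 on the y axis and 1 point per gene coloured by last-codon group (other codons are the not affected group). Of the 84 strongly affected genes 68 lie in the upper right part, where both ratios are positive, against 42 of the 291 not affected genes.

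Within the strongly affected group the medians differed by codon, with no test of the difference. Fitted log2 fold changes had a median of 1.69 over the 59 tested genes that end in AGG, 1.64 over the 66 that end in CGU and 1.01 over the 477 that end in AAA. The arginine codon AGA, outside the group, had a median of 0.05. By the stop codon that followed, the strongly affected genes had medians of 1.25 for UAA, 1.07 for UAG and 0.98 for UGA. Among AAA-ended genes split by the residue before the last, 107 with lysine had a median of 1.17 with 6 called, 20 with phenylalanine had 2.09, and 18 with proline had -0.18 with 1 called. The highest median of any last codon was that of CCG, at 3.51, but it rested on 10 tested genes of which 2 could be tested by cDNAs. ACU, a codon of the not affected group, had a median of 1.02 over 50 tested genes, close to that of AAA. By cDNAs the medians were 0.22 for ACU and 0.91 for AAA.

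The study also listed no-go decay candidates from separate nanopore data. Those cells were grown at the lower temperature, and a candidate needed a minimum number of read ends. The 138 that could be matched, all strongly affected, had a median fitted log2 fold change of 1.58 with 13 called, and 101 of the 134 with a ratio in both pairs were positive in both (75.4%). The other 464 strongly affected genes tested had a median of 0.98 with 7 called. Of the 399 unlisted genes with a ratio in both pairs, 177 were positive in both (44.4%). Enough cDNAs for a test were found for 130 of the 138 candidates, against 294 of the 464 unlisted genes. With all genes cut into 4 bins by mean level, 71.8% of strongly affected genes in the top bin were positive in both pairs. In the lowest bin it was 27.1%. Not affected genes had 18.6% in the top bin and 27.2% in the lowest. The level includes the *new1Δ* reads, so a gene that gained reads there moved to a higher bin. Nothing is read from the shares across bins. The part of level in the difference between listed and unlisted genes was not tested.

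The called genes had short coding sequences. The 22 called genes had a median coding length of 376.5 nt (range 180 to 957), against 1245 nt over the strongly affected genes tested and 1323 nt over all tested. With all genes cut into 4 bins of equal size at 801, 1323 and 2034 nt, the strongly affected genes had median log2 fold changes of 1.88, 0.99, 0.67 and 0.80 from the shortest bin to the longest, with 19, 1, 0 and 0 called. The not affected genes had -0.17, -0.05, -0.05 and 0.10 in the same bins. Across genes the Spearman correlation of coding length with log2 fold change was -0.230 among 602 strongly affected and 0.045 among 3477 not affected genes, and genes are not independent replicates. All 20 called genes of the group were also in the top of 4 bins of mean level over the 4 libraries, a level that includes their *new1Δ* reads. The part of level in the difference by length was not tested.

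**Figure D4:**
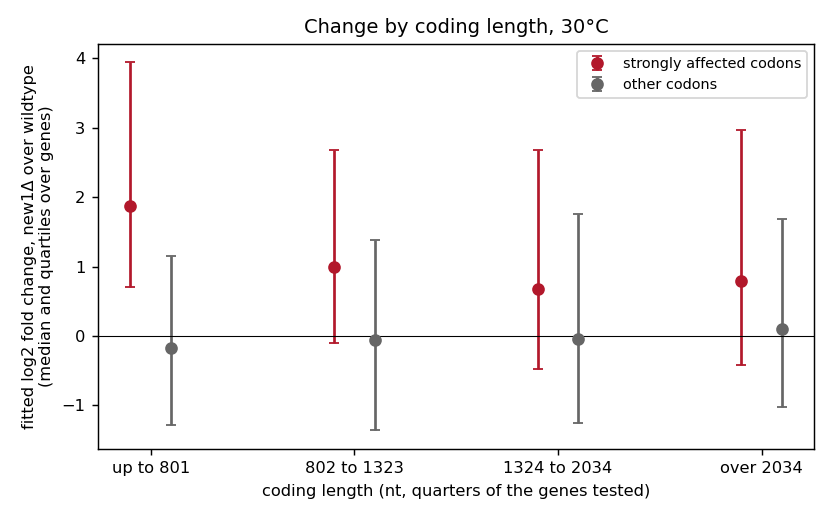
Fitted log2 fold change (*new1Δ* over wildtype) in 4 bins of coding length (nt), with points at the median over genes and bars from the lower to the upper quartile, for strongly affected genes and not affected genes (other codons). Strongly affected genes of the shortest bin have a median of 1.88, against -0.17 for not affected genes of that bin.

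A pair of paralogs that differ in the last codon was chosen after the values were seen. *LYS21*, a homocitrate synthase that ends in AAA, had 1426 and 685 reads in *new1Δ*, against 211 and 111 in wildtype (log2 fold change 2.80, SE 0.81, adjusted p = 0.0883 by reads and 0.027 by cDNAs). *LYS20*, the second homocitrate synthase, 95.3% identical in the aligned coding sequence and ending in GCC, had 249 and 27 reads in *new1Δ*, against 290 and 80 in wildtype (log2 fold change -0.78, SE 1.46), so its direction is not resolved. The difference between the paralogs was not tested, and at 20 °C both had negative log2 fold changes, -0.82 for *LYS21* and -1.14 for *LYS20*, neither of them called.

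Among 27 lists of genes of known function, 7 held a called gene. Besides the ribosomal proteins of both subunits these were glycolysis (*GPM1*, 1 of 17 tested, list median -0.25), oxidative phosphorylation (*ATP15*, 1 of 34, 0.47), peroxiredoxins and thioredoxins (*TSA1*, 1 of 21, 0.73), heat shock proteins (*HSP12*, 1 of 18, 0.06) and Hsp70, Hsp40 and Hsp90 chaperones (*EGD2*, 1 of 26, 0.04). The last list includes *EGD2*, although it encodes a subunit of the nascent polypeptide-associated complex and none of these 3 kinds of chaperone. Each count is to be read beside the 0.455% called, and each median beside the 0.13, of all genes tested. In 14 of the 15 lists with at least 5 strongly affected members tested, the median of those members was above that of the rest. In amino acid biosynthesis the 9 strongly affected genes had a median of 2.80 and the other 66 of -0.36. The 7 strongly affected initiation factors had a median of 2.30 and the other 24 of -0.18, and in the secretory pathway the medians were 2.43 (8 genes) and -0.24 (33 genes). The exception was the list of hexose transporters, proton pump and ATP-binding transporters, where 7 strongly affected genes had a median of 1.25 and the other 8 of 2.15.

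Apart from ribosomal proteins, the lists for translation held no gene called by reads in edgeR. DESeq2 gave no adjusted p for 3560 of the 4833 genes, so it could not call those. Of 22 genes for collision sensing and ribosome-associated quality control, 0 were called (1 at an unadjusted p under 0.05, 1 by DESeq2), with a list median of -0.16. Of 16 termination, recycling and rescue factors, 0 were called by either tool or at that unadjusted p, with a median of -0.20. Of 31 initiation factors 0 were called (3 at that unadjusted p, 1 by DESeq2). The 11 elongation factors had a median of 0.55, with 0 called by reads (3 higher at that unadjusted p), and *CAM1*, a subunit of elongation factor complex eEF1B, was called by cDNAs (log2 fold change 2.27, adjusted p = 0.0153). *MBF1*, a coactivator that also acts at collided ribosomes and ends in AAA, had 1165 and 737 reads in *new1Δ*, against 282 and 86 in wildtype (log2 fold change 2.68, adjusted p = 0.0999). The 77 mitochondrial ribosomal proteins had a median of 0.49 with 0 called (2 at that unadjusted p, 1 by DESeq2). Genes of the vacuolar proton ATPase had the lowest list median, -0.37 over 15 genes, with 0 called by either tool or at that unadjusted p.

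Glycolytic and fermentative mRNAs, among the most abundant in yeast, had values on both sides of the wildtype level. *ADH1*, the main alcohol dehydrogenase, ends in AAA and had 27231 and 8716 reads in *new1Δ*, against 14920 and 6703 in wildtype, both pairs higher (log2 fold change 0.73, SE 0.25, adjusted p = 0.321). *PGK1*, phosphoglycerate kinase, also ends in AAA and had 6212 and 4882 in *new1Δ*, against 6799 and 2816 in wildtype, with log2 ratios of -0.37 in pair 1 and 0.97 in pair 2. For *PGK1*, *ADH1* and *GPM1* the study reports recruitment of Hel2 to the untranslated region after the stop codon. Reads of that region were not counted apart here, so these values do not bear on that recruitment. *TDH3*, glyceraldehyde-3-phosphate dehydrogenase, ends in GCU and had 9317 and 3258 in *new1Δ*, against 16293 and 7083 in wildtype (log2 fold change -0.85, SE 0.26, adjusted p = 0.142). None of these 3 passed edgeR's test in the reported fit. DESeq2 called *ADH1* higher (log2 fold change 0.67, DESeq2 adjusted p = 0.0121) and *TDH3* lower, and edgeR called *TDH3* lower under other settings.

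The lowest estimates came from genes with few reads: *YOR111W* had 0 and 0 reads in *new1Δ*, against 113 and 31 in wildtype, *QDR3*, a multidrug transporter, 0 and 0 against 63 and 41, and *PRP16*, a splicing helicase, 0 and 0 against 62 and 33. Their groups did not overlap, but 13.9% of all genes tested were lower in both *new1Δ* libraries than in both wildtype libraries, and 17.0% were higher.

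By class of RNA, the read shares of *new1Δ* and wildtype libraries overlapped for every class except snoRNA. The mRNAs took 36.5% and 42.6% of mapped reads in *new1Δ*, against 38.9% and 39.4% in wildtype, and rRNA 50.6% and 48.8% in *new1Δ*, against 47.1% and 51.7% in wildtype. tRNAs took 8.40% and 4.69% in *new1Δ*, against 11.9% and 5.38% in wildtype, with the replicates further apart than the strains, and within pairs the share in *new1Δ* was lower in both (differences of -3.48 and -0.682 points). Of the 10 classes, snoRNAs were the one whose read shares did not overlap, with 1.29% and 0.926% in *new1Δ*, against 0.450% and 0.747% in wildtype (exact permutation test, two-sided, p = 0.333, adjusted 0.952). The untagged libraries had snoRNA shares of 1.02% and 3.12%, at or above most of the tagged ones. By cDNAs the shares of snoRNAs, CUTs, other ncRNAs (all higher in *new1Δ*) and pseudogenes (lower) did not overlap. Each had p = 0.333, the smallest that 2 against 2 allows (exact permutation test, two-sided, adjusted 0.833). The cDNA column includes antisense fragments. *RUF5-1*, an ncRNA, had 129 and 414 cDNAs in *new1Δ*, against 27 and 26 in wildtype, with 0 sense reads in both *new1Δ* libraries. By reads the share of other ncRNAs was lower in both pairs (differences of -0.0338 and -0.0067 points). Of 77 snoRNAs tested 59 had a positive fold change and 0 were called by edgeR, or passed an unadjusted p under 0.05. In the same fit 35 of 59 CUTs, 53 of 105 SUTs, 78 of 144 XUTs and 11 of 45 tRNA types had a positive fold change.

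**Figure D5:**
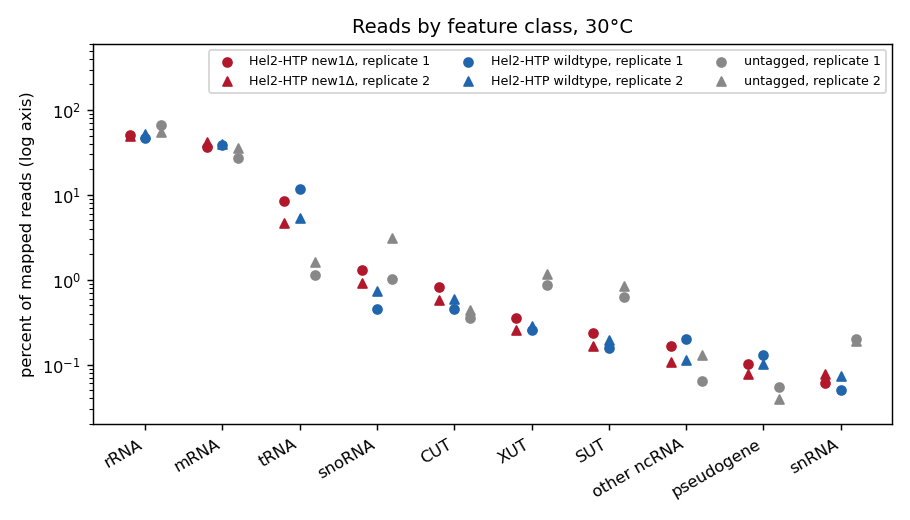
Share of mapped reads (percent, log axis) by RNA class in each *new1Δ*, wildtype and untagged library at 30 °C, with 1 point per library. The *new1Δ* and wildtype points overlap in every class except snoRNA, and tRNA lies higher in all 4 tagged libraries than in the untagged ones.

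The ribosomal RNA of the tagged libraries differed from background in kind. The 18S rRNA of the small subunit, which Hel2 contacts, took 31.7% and 34.2% of mapped reads in *new1Δ*, against 33.6% and 34.4% in wildtype, and 3.30% and 6.25% in the untagged libraries. The 25S rRNA of the large subunit took 16.0% and 11.7% in *new1Δ*, against 10.4% and 14.2% in wildtype, and 61.1% and 45.7% in the untagged libraries. The ratio of 18S to 25S reads was 1.98 and 2.91 in *new1Δ*, against 3.23 and 2.42 in wildtype, so the strains overlapped.

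Of 447 noncoding features tested 1 was called (0.224%), where 0.153% of all features in that fit were called and 0.0192% were called lower. *CUT628*, a cryptic unstable transcript, was lower, with 1522 and 266 reads in *new1Δ*, against 4392 and 2474 in wildtype (log2 fold change -2.48, SE 0.39, edgeR adjusted p = 0.015). This call was lost without replicate 2, and with no replicate block, where 0 noncoding features were called (8 at an unadjusted p under 0.05). *CUT826* had 7847 and 1822 reads in *new1Δ*, against 710 and 511 in wildtype, both pairs higher, and passed the test by cDNAs (adjusted p = 0.000189) but not by reads (log2 fold change 2.54, adjusted p = 0.107). The 5S rRNA had 20510 and 7722 reads in *new1Δ*, against 9240 and 5258 in wildtype (log2 fold change 0.74, adjusted p = 0.172), and it too passed by cDNAs (log2 fold change 0.84, adjusted p = 0.000632). By cDNAs 12 of 563 noncoding features were called, 11 of them higher, and 9 of the 11 had more cDNAs than sense reads. No tRNA type was called among 45, of which 11 had a positive fold change and 4 an unadjusted p under 0.05. Of all 447 noncoding features 10 had an unadjusted p under 0.05, and 78 of the 144 XUTs had a positive fold change. The lysine tRNA tK(CUU) had 22467 and 2370 reads in *new1Δ*, against 34150 and 4099 in wildtype (log2 fold change -0.81, adjusted p = 0.857).

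Libraries of the same strains grown at 20 °C, with wildtype controls of their own, were set beside these. Of the 22 genes called at 30 °C, 17 were also called higher at 20 °C, where 1.39% of genes tested were called and 33 genes (0.683%) were called higher. The other 5 were *NCE103*, *RTC3*, *EGD2*, *PNC1* and *TSA1*, and for none of these did the difference between temperatures pass the test. *RPS21A* had 13080 and 6407 reads in *new1Δ*, against 264 and 539 in wildtype at 20 °C, with a log2 fold change of 5.58 there and 4.12 at 30 °C (adjusted p of the difference = 0.400). Temperature, medium as the methods give it, and library steps cannot be told apart.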

How the data were processed

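Hel2-HTP CRAC was done by the authors with 2 biological replicates per strain and temperature, each replicate in its own run. Per the labels and the methods, reads were aligned with Novoalign and counted with pyReadCounters 1.4.2 (30 °C) on the Ensembl R64 annotation with CUTs, SUTs and XUTs. The deposited values are counts: sense reads per gene, not collapsed, and cDNA counts that include antisense fragments. Mapped reads were 936839 to 2713842 per tagged library at 30 °C, and the number of libraries limits precision.

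Of 6454 protein-coding features 5862 were matched to the reference and 5840 used. The unused features held 1.37% to 1.68% of mRNA reads. edgeR 4.0.16 (quasi-likelihood, TMM, filterByExpr) was fitted to all 8 Hel2 libraries, with replicate number within temperature as a block and a strain term for each temperature, and p-values were adjusted by Benjamini-Hochberg over all genes tested. Noncoding features were fitted together with genes. The SE printed for edgeR is the absolute log2 fold change divided by the square root of the test's F statistic, and is not a fitted standard error. The fit has 2 residual degrees of freedom and a prior of 547, so the spread of a gene was read almost wholly from genes of like level. The block follows the methods, which form ratios within a replicate. Deviations of same-numbered libraries correlated at 0.06 (Pearson) over 4833 genes. Log2 ratios of a replicate pair used reads plus a pseudocount of 1, centred on the median over genes with a read in the pair. The fit was also run on counts simulated from its own model, which cannot show whether its spread holds for these libraries. Genes named are those called at 30 °C, *NEW1*, *HEL2* and the study's examples, the 10 lowest fold changes among genes lower in both pairs (wildtype minimum of 30 reads per library), the called members and the 2 with most reads of each functional list, called noncoding features and the 3 with most reads per class, and genes that differed between temperatures. Genes outside this rule are marked. Members, lists and comparisons were chosen with earlier results of these data known. Alternatives were other size factors, DESeq2 1.42.0, other filters, no block, the 4 libraries alone, cDNA counts and each replicate left out.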

Additional observations from a re-analysis of the deposited data

Results flagged for a closer look

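In 5 genes the effect of *new1Δ* at 30 °C differed from that at 20 °C by a test of the difference itself (edgeR, adjusted p under 0.05, 0.103% of genes tested). *ADH1* had 5295 and 3185 reads in *new1Δ*, against 19248 and 40773 in the 20 °C wildtype (log2 fold change -1.79), and the 30 °C value was higher by 2.53 (adjusted p = 1.4e-08). *ADH2*, the glucose-repressed alcohol dehydrogenase, had 415 and 305 in *new1Δ*, against 4338 and 7364 in the 20 °C wildtype (log2 fold change -3.01), a difference of 3.53 (adjusted p = 3.45e-05). The shown ends of *ADH1* and *ADH2* are identical, so reads there can be split between them. *HSP12* was higher in *new1Δ* at both temperatures, with 4659 and 2779 reads in *new1Δ*, against 753 and 1734 in wildtype at 20 °C, and the difference was 2.88 (adjusted p = 0.000593).

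*CDC33*, the cap-binding factor eIF4E, had 0 and 0 reads in *new1Δ*, against 325 and 608 in wildtype at 20 °C, and 232 and 140 in *new1Δ*, against 642 and 184 in wildtype at 30 °C. *YDJ1*, an Hsp40, had 0 and 0 in *new1Δ*, against 403 and 644 in wildtype at 20 °C, and 331 and 100 in *new1Δ*, against 194 and 193 in wildtype at 30 °C. Their fitted differences, 10.41 and 11.47 (adjusted p = 0.00562 for each), are set by the prior count because both *new1Δ* libraries at 20 °C were at 0, and they are no bound on a fold. In these differences temperature, the medium (which the methods, unlike the labels, give as also lacking uracil at 20 °C) and the library steps cannot be told apart.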

How the results depend on the processing

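DESeq2 left 3560 of the 4833 genes without an adjusted p. The 22 genes called became 60 by DESeq2, 6 with no replicate block, and 38 by cDNAs. Of the 60, 56 were higher and 4 lower (*ENO2*, *NEW1*, *PDC1* and *TDH3*), and 21 of the 22 were among them. The count was 0 with a minimum of 10 reads in each of the 4 libraries (82 of 1577 at an unadjusted p under 0.05), and 0 in a fit of the 4 libraries alone, both with the replicate block (152 of 4203 at that p) and with no replicate block (115). The prior for the spread had 2.30 to 10.4 degrees of freedom in these 3 fits and in that with no replicate block, against 547 in the reported fit. Without replicate 1 the count was 7, and without replicate 2 it was 20, of which 10 were among the 22. The 11 ribosomal protein genes became 6 with no replicate block, 0 under that minimum and in both fits of the 4 libraries alone, and 4 to 6 without 1 replicate. The 5 temperature differences became 13 by DESeq2, 8 with other size factors, 2 with no replicate block, and 0 to 9 without 1 replicate (0 without replicate 1, with 27 at an unadjusted p under 0.05). The 1 noncoding call became 12 by cDNAs, 3 with other size factors, 2 with mRNA library sizes and 0 with no replicate block (8 at an unadjusted p under 0.05), and without replicate 2 a different feature was called.

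The strongly affected median of 0.90 ranged over 1.11 and 0.77 (pseudocounts of 0.1 and 5), 0.84 (minimum of 10), 0.59 (cDNAs), 1.15 (fitted) and 0.76 to 0.83 without 1 replicate. The mildly affected 0.15 became 0.11 (pseudocount 5), 0.12 (minimum of 10), 0.0437 (cDNAs), 0.19 (fitted) and 0.10 to 0.11 without 1 replicate, and the not affected -0.19 became -0.12 (cDNAs) and -0.0622 (fitted). Without 1 replicate the share difference ran over -2.46 to 3.17 points for mRNA, -2.82 to 3.45 for rRNA, -3.48 to -0.682 for tRNA and 0.179 to 0.843 for snoRNA. None of the 22 called genes changed sign in any of these settings, and 14 of the 76 other named genes did. In each of the 22 both *new1Δ* libraries lay above both wildtype libraries, so a change of sign was hardly possible in refits of the same counts. Nothing is read from this contrast. A count of 0 in wildtype replicate 1 limits the estimates of *NPC2*, *NCE103*, *ATP15* and *RTC3*.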
